A study of Mus musculus with 8 samples.

Results

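The 2 arrays described here set the ischemic hemisphere of mice given pituitary adenylate cyclase-activating polypeptide (PACAP38) against that of mice given saline, 6 h into a lasting occlusion of the middle cerebral artery (PMCAO). They are 2 of the 8 arrays in the series, chosen by their titles, which name PMCAO with and without PACAP at 6 h, and not by any measured value. The other arrays hold the same contrast after sham surgery at 6 h and both contrasts at 24 h. The question put by this comparison is which transcripts of the ischemic hemisphere PACAP38 changed early after the occlusion.

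All mice were male C57BL/6J animals of 8 to 12 weeks by the labels, with no genetic alteration. The right middle cerebral artery was closed for good with an intraluminal filament, and 1 pmol PACAP38 in 1 µl, or 1 µl saline alone, was given into the cerebral ventricle directly afterwards, on the side away from the occlusion. Each pool joined 300 ng total RNA from each of 3 mice, and the mice of the PMCAO pools had been selected by their neurological grade. The whole right hemisphere was used, so infarct core, penumbra and tissue outside the infarct are mixed, and per the methods olfactory bulb and cerebellum had been removed. Array 1 carried the PACAP38 pool in Cy5 and the saline pool in Cy3, and array 2 carried the reverse. The methods describe the same RNA labelled with both dyes, while the titles number the arrays as pools 1 and 2, and the sources do not settle which holds. The arrays are read here, after the methods, as a dye swap of 1 pool for each treatment, in which case their difference measures labelling and hybridization and not variation between mice. If the pools were separate, pool and dye cannot be told apart. On this reading no test between treatments was made. Every value below is a description of these pools.

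PACAP is a neuropeptide of the secretin and VIP family, whose receptor PAC1 couples to adenylate cyclase and so raises cyclic AMP. Cyclic AMP activates protein kinase A and the transcription factor CREB, which drives immediate-early genes and neuropeptides. In experimental stroke the peptide is known as a neuroprotectant, and cytokines, chemokines and heat shock proteins are classes of genes that ischemic brain induces within hours.

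A probe counted as measured when it had a value on both arrays and at least 1 of the pools was well above background on both. Of 35123 probes with a value on both arrays, 22510 were measured, and these stood for 13950 named genes, each represented by its brightest probe. Values are log2 ratios of PACAP38 over saline, and signals are the processed intensities of the scanner software. A gene was called up when it exceeded 1.5-fold on each array and called down when it lay below 0.75-fold on each. On these terms 94 genes were called up, which is 0.674% of those measured, and 183 were called down, which is 1.31%. The down threshold is the less strict of the pair, and with 1.5-fold in both directions 51 genes remained called down. By the calls of the software at p under 0.01 on both arrays, 57 of the genes called up and 33 of those called down also passed.

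The arrays differed from each other more than most genes differed between the pools. Across measured probes the log2 ratios of array 1 and array 2 correlated at 0.20 as a description, and across all probes with values at -0.14. Array 1 alone placed 791 genes above 1.5-fold and array 2 alone placed 287 there, while 1752 and 742 genes lay below 0.75-fold. In 196 measured probes the arrays passed the thresholds in opposite directions. The called genes were dim, with a median signal of 83.6 for those called up and 106 for those called down, against 587 over all measured genes. In 49 of the 94 genes called up, the saline pool was well above background on both arrays, and in 141 of the 183 called down, the PACAP38 pool was. When normexp background correction with an added offset and loess replaced the software's processing, 13 genes were called up and 17 down. All 13 were among the 94 and 14 of the 17 among the 183. Of the 60 called genes chosen by the naming rule, 19 kept their call with that processing. They were Gabra6, Crtam, S100a5, Car8, Ccl3, Inhba, Chac1, Hspa1a, Pisd-ps3 and 9530076L18 among those up, and Lct, Itga11, Drd4, Ackr2, Selplg, Tmem119, Fkbp5, Adcy5 and Tmem245 among those down. Every other called gene chosen by the rule lost its call there.

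**Figure D1:**
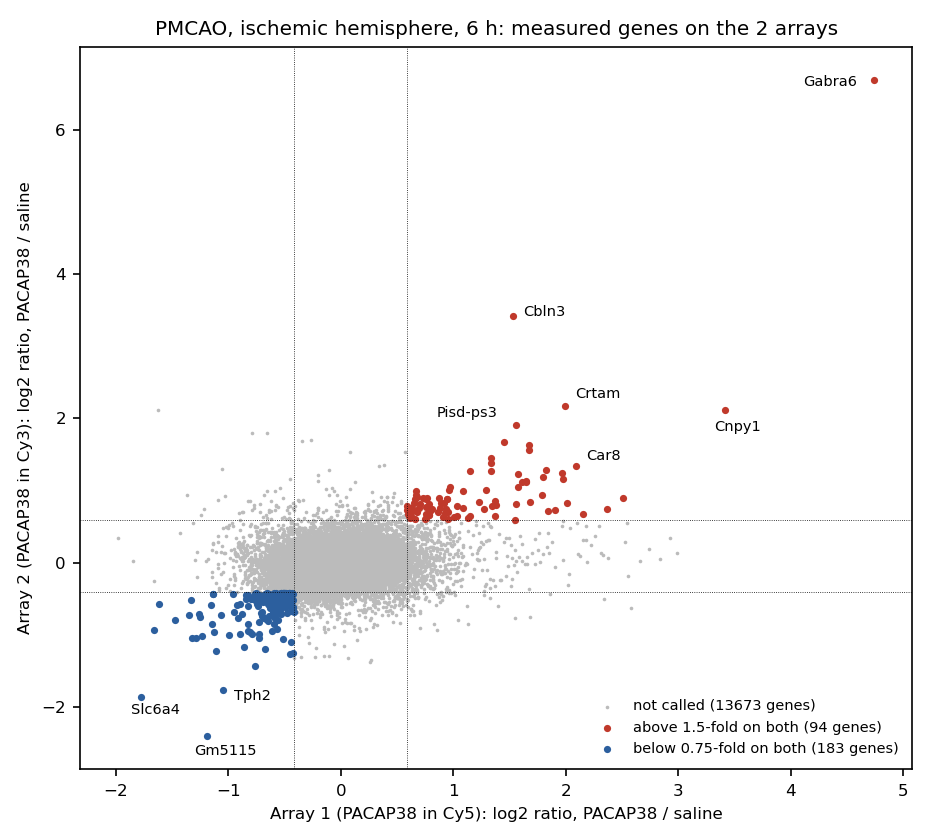
Log2 ratio of PACAP38 over saline for each measured gene on array 1 (x axis, PACAP38 in Cy5) against array 2 (y axis, PACAP38 in Cy3), with genes called up in red, genes called down in blue and all others in grey, and dotted lines at 1.5-fold and 0.75-fold. Gabra6 lies far from all others at 4.74 and 6.69, and the 94 red and 183 blue points sit at the edge of a grey cloud that is wider along array 1.

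The gene with the largest value was Gabra6, the alpha-6 subunit of the GABA-A receptor, which is known as a marker of cerebellar granule cells. Its signal was 277 in the PACAP38 pool and 10.3 in the saline pool on array 1, and 349 and 3.38 on array 2. The saline pool was not well above background on either array, so with the software's processed signals the difference is given as at least 14.6-fold. This bound depends on the processing. With normexp and loess Gabra6 stayed called up, but its mean log2 ratio was 1.08. Cbln3, a cerebellin of the same cells, read 21.8 against 7.55 and 39.3 against 3.68, and its bound was at least 1.24-fold. Crtam, an adhesion receptor of activated natural killer and T lymphocytes, was well above background in both pools. It read 290 against 72.9 on array 1 and 358 against 79.6 on array 2, 4.23-fold higher in the PACAP38 pool. With normexp and loess the mean log2 ratio of Crtam was 0.70. S100a5, a calcium-binding protein of olfactory sensory neurons, read 487 against 153 and 558 against 189, which is 3.07-fold.

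The probes are 60 bases long, and the first 30 bases of 6 of them are printed here. They tie each value to a place in the genome. The probes of named genes were picked by gene and are not the most extreme ones throughout. The sequences come from the array files, are written 5′ to 3′, and their coordinates are those of the whole probe in build mm7. No annotation of that build was used, so exon and intron are not given.
Gabra6, chr11:42263338-42263397, minus strand: tgcatatgtacatagctttagttatgctgc
Il6, chr5:29052734-29052793, plus strand: atattctgttacctagccagatggtttctt
Slc6a4, chr11:77113633-77113692, plus strand: acataaaccacctaagagaaaacagggatg
Lct, chr1:128164943-128165002, minus strand: ctcatttcagggtttgatggtagactcaag
Unnamed probe, chr8:92607160-92607219, minus strand: gcagccagcttaacactttgtataggcaga
Probe of an unclassified cDNA, chr1:59969688-59969747, plus strand: gaaagagtcaaatacagtgtataagccttg

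The last 2 of these had no gene symbol and lay below every named gene called down in their mean ratio. The unnamed probe on chromosome 8 read 79.9 in the PACAP38 pool against 551 in the saline pool on array 1 and 70.0 against 818 on array 2, a ratio of 0.111. After sham surgery the log2 ratio of this probe was -0.08 and -0.23. The cDNA probe on chromosome 1 read 25.2 against 113 and 44.1 against 184, a ratio of 0.232. In all, 59 measured probes without a gene symbol passed the thresholds upwards and 24 downwards.

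Interleukins were among the genes called up. Il6, a cytokine that signals through STAT3, was spotted 10 times on the array. Its mean signal was 63.3 in the PACAP38 pool and 18.1 in the saline pool on array 1, and 77.9 and 32.5 on array 2. The log2 ratio was 1.96 ± 0.74 (SD, n = 10 spots) on array 1 and 1.24 ± 0.27 (SD, n = 9 spots) on array 2, and the lowest spot stood at 0.93. The saline pool was well above background on 1 of the arrays only, and the mean ratio was 3.04-fold. Il1b, a cytokine released through the inflammasome, was measured in both pools, with 160 against 66.1 and 179 against 88.9. All of its spots were higher in the PACAP38 pool, with a lowest log2 ratio of 0.88 on array 1 and 0.76 on array 2. Il22, which acts on epithelial cells, had 2 measured probes and both were called up. The brighter read 115 against 29.3 and 128 against 57.2, a mean of 2.96-fold. With normexp and loess none of the 3 was called, and the mean log2 ratio was 0.17 for Il6, 0.31 for Il1b and 0.32 for Il22.

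No other member of these families was called. Of 18 measured genes of the IL-6 family and STAT3 pathway, Il6 was the only one called, and the median log2 ratio was 0.07 against -0.02 over all measured genes. Il11 stood at 0.76 and 0.54, Osm at -0.10 and -0.02, the receptor Il6ra at -0.37 and -0.40, Stat3 at -0.04 and 0.29 and the feedback inhibitor Socs3 at 0.02 and 0.50. In the IL-1 family and inflammasome, 1 of 13 measured genes was called and the median was 0.09. The inflammasome genes Nlrp3 and Casp1 lay between -0.08 and 0.13 on both arrays, and Il1a was below background. Among 24 other interleukins and their receptors, Il22 was the only call and the median was -0.18.

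Among chemokines, Ccl3, a ligand that recruits monocytes and neutrophils, read 962 in the PACAP38 pool against 381 in the saline pool on array 1 and 1227 against 508 on array 2, so it was 2.47-fold higher at signals well over background. Ccl7, a monocyte ligand, read 109 against 49.5 and 96.4 against 61.5, a mean of 1.86-fold. Ccr2, the receptor that Ccl7 binds, read only 25.7 against 10.2 and 38.8 against 14.9, with the saline pool below background on both arrays and a bound of at least 1.36-fold. Thus 3 of 18 measured CC chemokines and receptors were called up and none down, while 6 lay above 0 on both arrays, 6 lay below, and the median was -0.03. Over all measured genes 0.674% were called up, 24.1% lay above 0 on both arrays and 29.6% below. Ccl2 missed the threshold on array 2, with 0.68 and 0.50. Ccl4 was left out through background marks on its spots. With such spots kept it stood at 0.72 and 1.34 and would have been called up.

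No gene of the CXC and CX3C group was called, yet 10 of its 11 measured members lay above 0 on both arrays. The median of the group was 0.44, the highest of the 50 gene lists examined. Cxcl10, an interferon-induced ligand, stood at 1.27 and 0.51, Cxcl12 at 0.67 and 0.40, and Cxcl1 at 0.74 and 0.14. The neutrophil receptor Cxcr2 stood at 0.63 and 0.44. The exception was Cx3cr1, the fractalkine receptor of microglia, at 0.15 and -0.46. Values on array 1 exceeded those on array 2 for all of these genes but Ppbp, and the median ranged from 0.05 to 0.67 over the other ways of processing. Cxcl2 was below background.

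**Figure D2:**
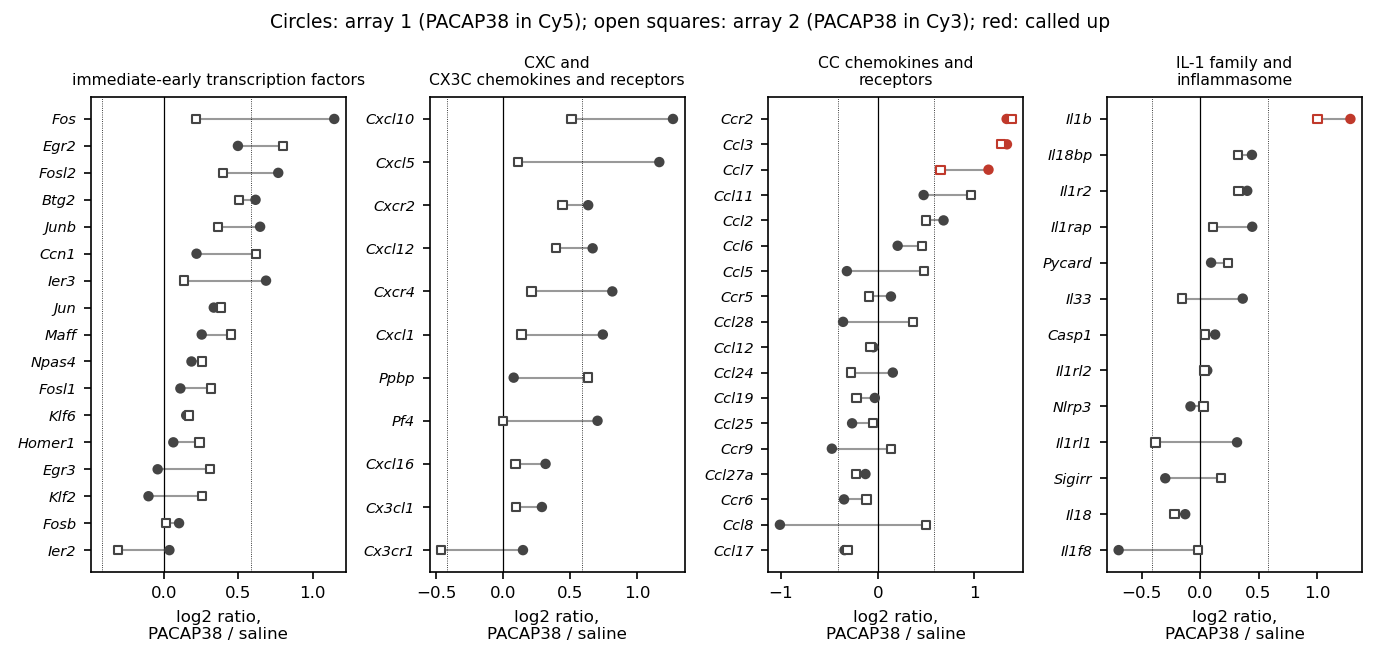
Log2 ratio of PACAP38 over saline (x axis) for each measured gene of 4 gene lists, with filled circles for array 1 and open squares for array 2, red for genes called up and dotted lines at 1.5-fold and 0.75-fold. Ccr2, Ccl3, Ccl7 and Il1b lie right of the 1.5-fold line on both arrays. Most immediate-early genes and CXC chemokines lie right of 0 without passing that line on both.

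Among 12 measured neutrophil markers, 3 were called up, against 0.674% over all measured genes. S100a8, a calcium-binding protein abundant in neutrophils, read 1258 against 744 on array 1 and 1571 against 918 on array 2, a mean of 1.70-fold. Its partner S100a9 stood at log2 ratios of 0.28 and 0.86 and was not called. Retnlg, a resistin-like protein of neutrophils, was 1.72-fold higher and Mmp8, the neutrophil collagenase, 1.90-fold. The median of the list was 0.34, with 7 members above 0 on both arrays and 2 below, and it ranged from 0.01 to 0.41 over the other ways of processing. Mpo and Mmp9 lay within -0.47 and 0.08, and Lcn2 stood at 0.22 and -0.45. The summed signal of the list was 10505 in the PACAP38 pool against 8314 in the saline pool on array 1, and 13698 against 8133 on array 2. Most of this sum was S100a9 alone, with 8108 against 6660 on array 1 and 10762 against 5943 on array 2. In bulk tissue, a different number of neutrophils and a different amount of RNA for each cell cannot be told apart.

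Of 20 measured markers of microglia and macrophages, Msr1, a scavenger receptor of macrophages, was called up at signals of 20.8 against 6.99 and 33.4 against 16.2. Tmem119, a marker of resident microglia, was called down, with 927 against 1343 and 926 against 1428, or 0.669-fold. The median was -0.04, and Aif1 and Itgam lay between -0.29 and 0.29. Selplg, the P-selectin ligand on leukocytes and microglia, was lower on both of its probes, and the brighter read 1369 against 2232 and 1419 against 2372, or 0.606-fold. Of 13 measured leukocyte adhesion genes it was the only one called. Crtam was the only member of 9 measured lymphocyte markers called up. Icos, a costimulatory receptor of T cells, was called down near background at -0.71 and -0.50, though its other measured probe stood at 0.35 and 0.48, and Cd3d was below background.

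Among glial genes, Ptx3, a pentraxin of reactive astrocytes and macrophages, read 115 against 44.3 and 160 against 92.2, a mean of 2.12-fold. It was the only call in 21 measured astrocyte and gliosis markers. When background marks were ignored, Thbs1 was also called up, at 0.95 and 0.79. Gfap, the filament protein of astrocytes, stood at 0.72 and -0.22, and Vim at 0.41 and 0.15.

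Genes of the immediate-early class, most of them transcription factors, are induced by cyclic AMP and calcium within minutes. They leaned towards the PACAP38 pool without a call. Of 17 measured members, 14 lay above 0 on both arrays and none below, against 24.1% and 29.6% over all measured genes. The median was 0.35. Fos stood at 1.15 and 0.22, Egr2 at 0.50 and 0.80, Fosl2 at 0.77 and 0.40 and Btg2 at 0.62 and 0.50. The second gene of the list, Fosb, stood at 0.10 and 0.01. Another 9 members were left out through outlier marks. When background marks were ignored, 22 members were measured, 20 of them lay above 0 on both arrays, and Atf3 was called up at 0.67 and 0.68. The median was then 0.38. Over all alternatives it stayed between 0.22 and 0.38.

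In the list of cyclic AMP responsive genes, Gem, a small GTPase that restrains calcium channels, was called up. It read 430 in the PACAP38 pool against 203 in the saline pool on array 1 and 680 against 343 on array 2, a mean of 2.05-fold. The other 13 measured members were not called, and the median was 0.12. Ptgs2, the inducible cyclooxygenase, stood at 0.98 and 0.38, Bdnf at 0.35 and 0.34, Dusp1 at 0.82 and 0.21, Crem at -0.21 and 0.33 and Pde4d at 0.37 and 0.32. None of the 4 measured ligands and receptors of PACAP and VIP was called. The PACAP receptor gene Adcyap1r1 stood at -0.22 and -0.28 at signals of 3590 to 5311. Adcyap1 itself was left out through background marks, and with these ignored it stood at 0.14 and -0.13.

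The cyclic AMP response element TGACGTCA was looked for on both strands between 250 bases before and 50 bases after each gene start, in RefSeq promoters of build GRCm38.p6. A promoter was matched for 51 of the 94 genes called up, and none of these held the element, while 3.27% of the measured genes with a promoter did. Its core TGACG, which every full element also contains, occurred in 10 of the 51, or 19.6%, and in 32.4% of the measured genes. Genes called down held a like share, with the core in 25 of 129, or 19.4%, and the full element in 2, or 1.55%. The low share was thus not particular to the genes called up. In the 14 immediate-early genes with a promoter the core occurred in 10 and the full element in 2. A match to these letters is a description of the sequence and not a binding site.

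Hspa1a, the inducible 70-kDa heat shock protein, read 16090 against 10210 on array 1 and 17933 against 9752 on array 2, a mean of 1.70-fold. It was the only call in 14 measured heat shock and chaperone genes, of which 9 lay above 0 on both arrays and the median was 0.18. In the integrated stress response, Chac1, an enzyme that degrades glutathione, read 3566 against 2069 and 3989 against 2280, a mean of 1.74-fold. Trib3, a pseudokinase and target of ATF4, read 303 against 178 and 410 against 220 on its brighter probe, while its other probe stood at -0.36 and 0.23. The upstream factors Atf4 and Atf5 stood at 0.07 and 0.72 and at 0.19 and 0.34. Of 17 measured members 12 lay above 0 on both arrays, 1 below, and the median was 0.27.

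Inhba, the subunit of activin A, read 6251 against 3189 and 8332 against 4031, a mean of 2.01-fold, and was the only call in 27 measured neurotrophic and growth factor genes. Gipr, the receptor of the incretin GIP, read 166 against 74.9 and 234 against 96.9. Hcar2, the niacin receptor, read 52.4 against 16.7 and 58.9 against 27.1. The pseudogene Pisd-ps3 read 12408 against 4212 and 14756 against 3955, and Pisd itself, a phosphatidylserine decarboxylase, 2290 against 1352 and 2792 against 1513. The copies are alike in sequence and their probes may share transcripts, so the source of this signal is uncertain. The other measured probe of Pisd-ps3 stood at 0.93 and 0.04.

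**Figure D3:**
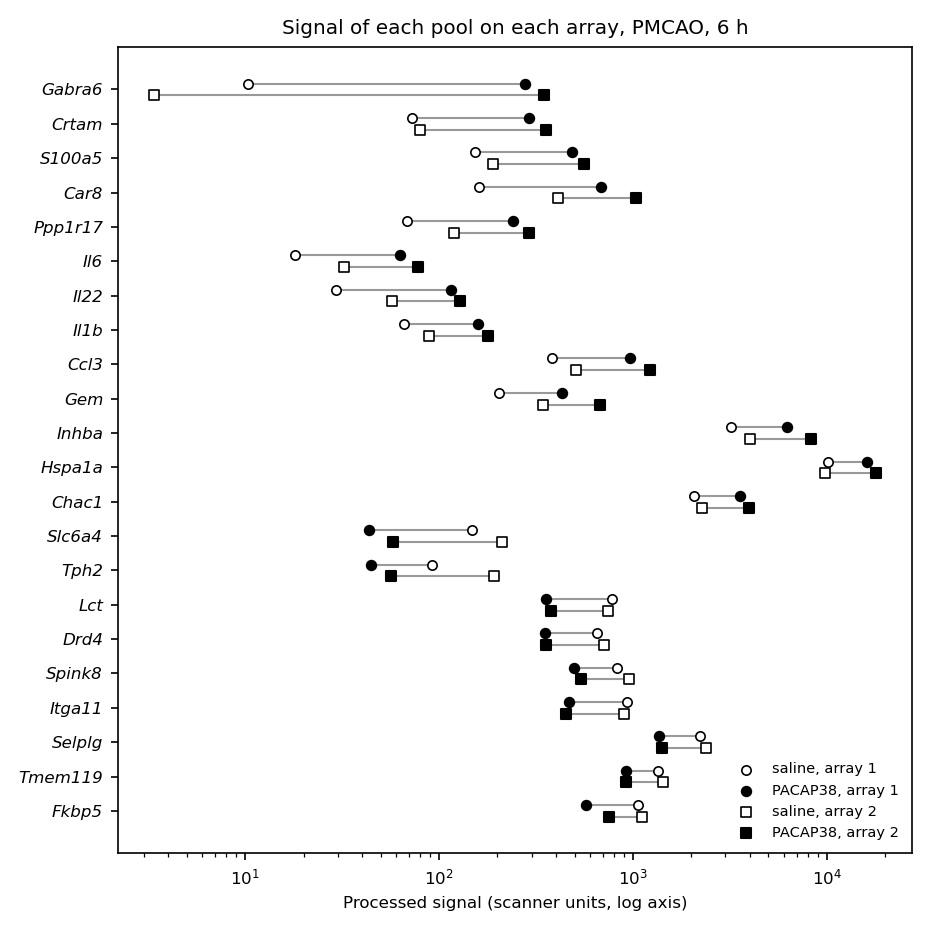
Processed signal (x axis, log scale) of the PACAP38 pool (filled) and the saline pool (open) on array 1 (circles) and array 2 (squares) for 22 genes. Filled symbols lie right of open ones for the first 13 genes and left of them for the other 9, and signals run from 3.38 for Gabra6 in the saline pool to 17933 for Hspa1a in the PACAP38 pool.

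The largest decrease among named genes belonged to Slc6a4, the serotonin transporter. It read 43.4 in the PACAP38 pool against 149 in the saline pool on array 1 and 57.9 against 211 on array 2, or 0.283-fold. Tph2, which makes serotonin in raphe neurons, read 44.7 against 92.2 and 56.3 against 191, or 0.378-fold. Both are defining genes of serotonergic neurons. With normexp and loess neither was called, at means of -0.40 and -0.33, and Itga11, Lct and Drd4 lay lower, at -0.66, -0.64 and -0.61. The other 6 measured markers of these neurons were not called and lay between -0.37 and 0.32. The enzyme Ddc stood at -0.18 and -0.20 and the receptor Htr1a at -0.35 and -0.37. The median of the list was -0.18.

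Hippocampal markers held more calls than any other list, with 5 of 10 measured genes called down, against 1.31% over all measured genes. Lct, the lactase gene, read 356 against 779 and 378 against 741, or 0.483-fold. Spink8, a protease inhibitor, read 498 against 825 and 541 against 954, or 0.585-fold. C1ql2, a C1q-like protein of dentate granule cells, read 173 against 283 and 132 against 215. Dsp, the desmosomal protein desmoplakin, read 65.9 against 112 and 75.2 against 204, and Fibcd1 read 123 against 184 and 112 against 191. The first genes of the list, Prox1 and Wfs1, were not called, at 0.56 and 0.05 and at -0.04 and -0.06. The median was -0.41, the lowest of the 50 lists, and it rested on few genes, since it came to -0.14 with 12 members when background marks were ignored.

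Among Purkinje cell markers, Car8, a carbonic anhydrase-related protein, read 687 against 161 and 1040 against 413, a mean of 3.28-fold, and its other probe was also called up. Ppp1r17, a protein phosphatase inhibitor of Purkinje cells, read 242 against 68.2 and 291 against 119, a mean of 2.94-fold, and both of its probes were called. Of 10 measured Purkinje markers, 2 were called up and 7 lay above 0 on both arrays, against 0.674% and 24.1% over all measured genes. The median was 0.27. Pcp2 stood at 0.38 and 0.47 on its brighter probe, while its other probe passed the threshold on both arrays, at 0.90 and 1.40. Pcp4 stood at 1.09 and 0.24. Of 13 measured granule cell markers, Gabra6 and Cbln3 were called up and 1 was called down, 6 lay above 0 on both arrays and 4 below. The call down was Grm4, a metabotropic glutamate receptor, at 29.4 against 45.3 and 28.9 against 41.5. Neurod1 stood at 1.00 and 0.35, but Cbln1 at -0.09 and -0.11, and the median was 0.17. With Gabra6 and Cbln3 set to their bounds this median did not change.

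In the olfactory list, S100a5 and Cdhr1, a cadherin of mitral cells, were called up, the latter at 759 against 469 and 1090 against 646. Doc2g stood at 0.56 and 0.64 and Omp, the defining protein of mature olfactory neurons, at 0.17 and 0.58. The median of 10 measured genes was 0.21, with 8 above 0 on both arrays. Olfactory bulb and cerebellum were not meant to be part of these samples, and the share of such tissue in each pool was not tested.

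**Figure D4:**
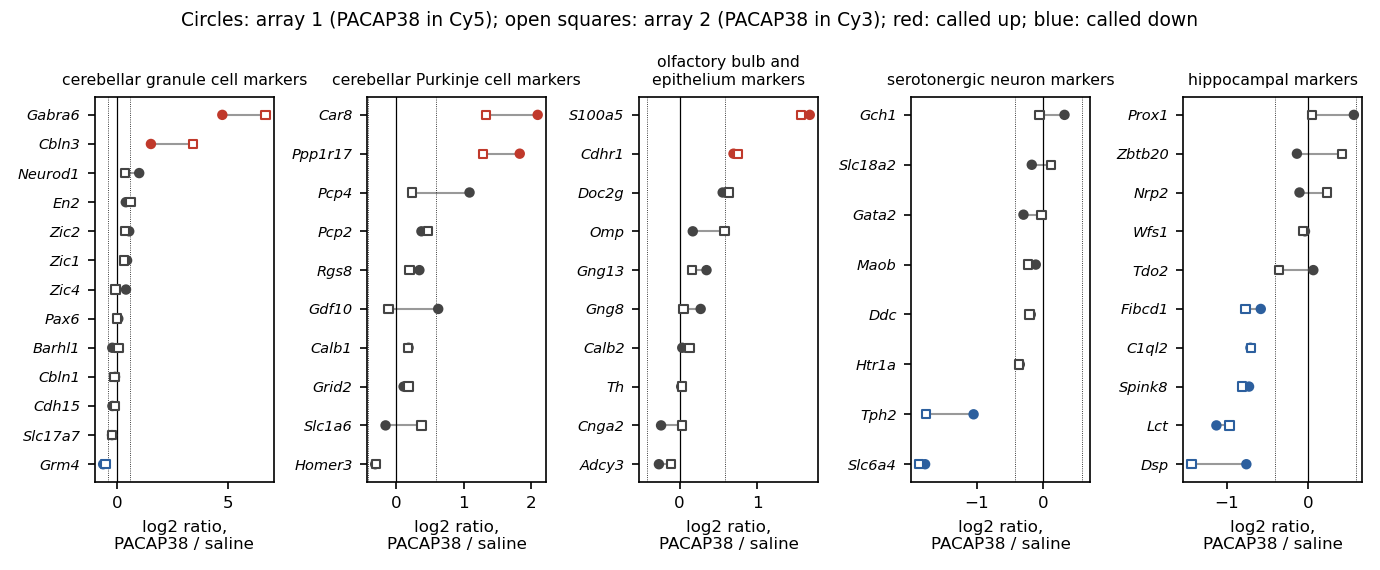
Log2 ratio of PACAP38 over saline (x axis) for the measured markers of 5 regions or neuron types, with filled circles for array 1 and open squares for array 2, red for genes called up and blue for genes called down. Gabra6, Car8 and S100a5 stand at the top of their lists and Slc6a4, Tph2 and 5 hippocampal genes at the bottom of theirs, while most other members lie near 0.

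Several others were among the 15 largest decreases. Itga11, an integrin that binds collagen, read 469 against 933 and 450 against 903. Drd4, the D4 dopamine receptor, read 352 against 656 and 358 against 709. Ackr2, a decoy receptor that clears CC chemokines, read 231 against 512 and 232 against 419. Itga11 was thus 0.501-fold and Drd4 0.520-fold, the log2 ratios of Ackr2 were -1.15 and -0.85, and both pools were well above background. Cnr2, the cannabinoid receptor of immune cells, read 36.6 against 64.8 and 36.2 against 69.8, close to background. Ly6d, Slc27a3 and Lao1 read 58.2 to 92.3 in the PACAP38 pool and 147 to 217 in the saline pool. Tmem245 was 0.445-fold on its brighter probe, but the other stood at -0.01 and 0.04. Gm5115, Sema4b, 9030625N01Rik and 1700072H12Rik were also among these decreases, close to background at signals of 5.48 to 58.5 over both pools.

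Among genes that respond to glucocorticoids, Fkbp5, a co-chaperone of the glucocorticoid receptor, read 570 against 1059 and 751 against 1115 on its brightest probe, or 0.603-fold. Its 2 other probes were lower or equal, with means of -0.40 and -0.10. Nr3c2, the mineralocorticoid receptor, read 80.3 against 125 and 59.1 against 89.0, or 0.653-fold. The list had 11 measured genes and a median of -0.06, and Per1 stood at -0.24 and 0.46. Adcy5, the main adenylate cyclase of striatal neurons, read 1388 against 2340 and 1534 against 2065, and was the only call in 15 measured striatal markers. The other calls down within the lists were Kcnh1, a potassium channel, and F5, the coagulation factor, at 0.689-fold and 0.696-fold. Gria3, an AMPA receptor subunit, and Rorb, a nuclear receptor of the clock and of cortical layer neurons, were called up at 1.59-fold and 1.76-fold. Gria3 turned to -0.012 on the log2 scale when background marks or all outlier marks were ignored. Another probe of Rorb stood at 0.19 and -0.05, and its call was lost when the probes of a gene were averaged.

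Of the 50 lists, 23 held no call in either direction, and their medians ran from -0.26 to 0.44. The lower end was the complement cascade, with 13 measured genes, 6 of them below 0 on both arrays and 2 above. The interferon-stimulated genes, 22 measured, had a median of 0.07, the hypoxia-inducible genes, 20 measured, one of 0.11, and the TNF and NF-kB feedback genes, 19 measured, one of 0.00. Tnf stood at 0.30 and -0.04 and Vegfa at 0.44 and 0.07. Dpysl2, which encodes the collapsin response mediator protein CRMP2, stood at 0.08 and -0.20 at signals of 454 to 530, and none of the 3 measured members of its family was called. Crmp1 was left out through outlier marks. Oligodendrocyte, endothelial and meningeal markers held medians of 0.07, 0.14 and 0.01.

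The same contrast after sham surgery lay on the same slide, and its values are set beside those after PMCAO without a test. The contrasts were made from different mice. Of the 94 genes called up, 61 were measured after sham surgery. There, 3 of these were above 1.5-fold on both arrays, namely S100a5, Cdhr1 and Clca1, and Gipr was below 0.75-fold. Over all 9873 genes measured in both contrasts, 0.324% were above 1.5-fold and 0.405% below 0.75-fold on both sham arrays. The counts of shared calls are small and are not read further. Of the 183 genes called down, 126 were measured after sham surgery. Slc6a4, Tph2, Ahrr and Syce1 were below 0.75-fold on both arrays there, and Fzd8 and Lao1 were above 1.5-fold.

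Slc6a4 stood at -3.04 and -1.72 after sham surgery beside -1.78 and -1.86 after PMCAO, and Tph2 at -2.25 and -1.20 beside -1.05 and -1.76. S100a5 stood at 4.26 and 0.82 after sham surgery beside 1.68 and 1.56. In both contrasts S100a5 was higher and Slc6a4 and Tph2 were lower in the PACAP38 pool. Il1b stood at -0.35 and 0.10 after sham surgery, Ccl3 at 0.04 and 0.45, Gem at -0.17 and -0.03, Inhba at 0.03 and -0.33 and Chac1 at -0.11 and -0.05. The chemokines Ccl2 and Cxcl1 stood higher after sham surgery than after PMCAO in their means. Ccl2 stood at 1.14 and 0.46 and Cxcl1 at 1.45 and 0.05. This did not hold for the CXC and CX3C list, whose median after sham surgery was -0.16 over 7 measured genes. The CC list had a median of 0.13 over 11 measured genes there. Fos stood at -0.14 on both sham arrays. The probe of Il6 was not measured there, at -0.03 and -0.15. The hippocampal genes Lct, Spink8 and Fibcd1 had means of 0.05, -0.04 and 0.11. C1ql2 stood at 0.62 and 0.06 and Fkbp5 at 1.25 and 0.47 after sham surgery, both opposite in direction to their values after PMCAO. For Crtam the saline pool was not well above background on either sham array, and the bound there was at least 1.11-fold higher in the PACAP38 pool.

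**Figure D5:**
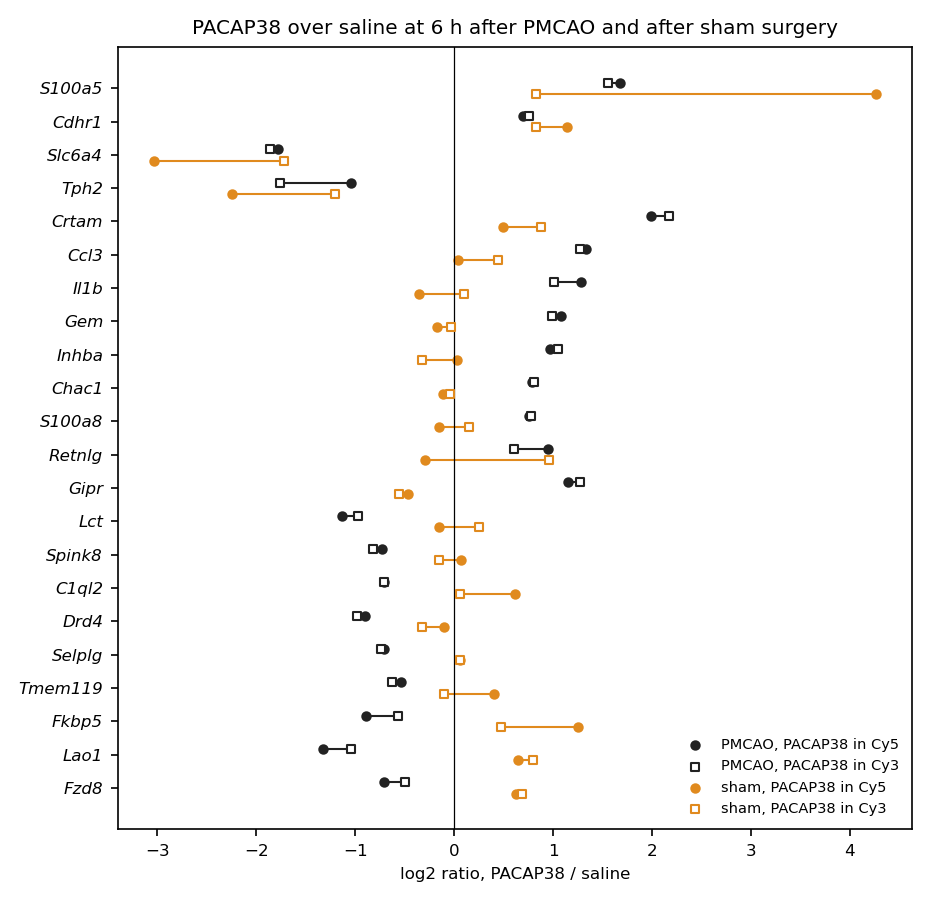
Log2 ratio of PACAP38 over saline (x axis) for 22 genes measured in both contrasts, after PMCAO in black and after sham surgery in orange, with filled circles for arrays with PACAP38 in Cy5 and open squares for arrays with PACAP38 in Cy3. S100a5, Cdhr1, Slc6a4 and Tph2 pass a threshold on the same side in both contrasts, and Gipr, Lao1 and Fzd8 on opposite sides. Fkbp5 and C1ql2 are among others on opposite sides of 0, without passing a threshold on both sham arrays. Ccl3, Il1b, Gem, Inhba and Chac1 lie nearer to 0 after sham surgery.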

How the data were processed

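Total RNA of pooled hemispheres was labelled with Cy3 or Cy5 and hybridized to whole mouse genome oligonucleotide arrays of 41174 probes. The authors extracted the scans with Agilent Feature Extraction, version 9.5.3.1 by the submitters' processing notes and 9.5.1.1 in the file headers, which subtracts background and normalizes the dyes. The deposited log10 ratio of red over green was turned to log2 of PACAP38 over saline, so its sign was reversed on the array with PACAP38 in Cy3. Processed intensity values and the software's p-values for each ratio came from the same deposited files. The deposited series table held the ratio of red over green processed signals, written by the authors with a minus sign (a score) on the arrays with PACAP38 in Cy3, and served as an alternative.

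Spots with a feature or background outlier mark were dropped with the controls, 8.28% of spots on array 1 and 10.9% on array 2, and spots of a probe were averaged. No spot was saturated. A pool was well above background on 62.1% to 76.0% of spots, and 2 arrays limit the precision. All 6 h arrays shared 1 slide. The RefSeq table of GRCm38.p6 named 32717 probes, the files another 2016, and 6441 had no symbol. Where a pool was below background on both arrays, a bound was computed from signals after loess and Aquantile normalization (limma 3.58.1, R 4.3.3), against the lowest signal well above background. Named genes were the 15 largest by the smaller of the array values in each direction, up to 8 called genes per list and direction, the first 2 genes of each list, and genes that earlier results name. Other genes in the text were picked after their values were seen. The members, the gene lists and these rules were chosen with earlier results of these data known. Only the arithmetic of the calls was tested on simulated data, and the rate of false calls was not tested. No test between treatments was made, and 12 alternatives were computed.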

Additional observations from a re-analysis of the deposited data

Results flagged for a closer look

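In 3 genes every array after PMCAO passed a threshold in one direction and every array after sham surgery passed the other, and the difference between the contrasts was not tested. Gipr, the receptor of the incretin GIP, stood at 1.15 and 1.27 after PMCAO and at -0.47 and -0.55 after sham surgery, so the means differed by 1.72 on the log2 scale. Lao1, an L-amino acid oxidase, stood at -1.33 and -1.04 after PMCAO and at 0.65 and 0.79 after sham surgery, a difference of -1.90. Fzd8, a Wnt receptor, stood at -0.71 and -0.49 after PMCAO and at 0.62 and 0.68 after sham surgery, a difference of -1.25. After PMCAO Fzd8 read only 39.0 against 63.6 and 32.5 against 45.8, close to background.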

How the results depend on the processing

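The counts of called genes depended on the processing. Against 94 called up and 183 called down, normexp with loess gave 13 and 17, the mean of the arrays past the threshold gave 274 and 517, and no filter on signal gave 161 and 347. With both pools well above background on both arrays 49 were called up, with the software's call added 57 up and 33 down, and with 1.5-fold in both directions 51 down. Leaving out an array in turn gave 287 to 791 up and 742 to 1752 down. The other counts stayed within 1.5 times, among them those with the background marks ignored, an alternative chosen after seeing the data, at 92 up and 193 down. No gene called up became called down, or the reverse, under any of the 12 alternatives. Of 704 values of the 60 called genes named by rule, 2 reversed, both of Gria3, at -0.012 with outlier spots kept and at -0.012 with background marks ignored, and the cause was not tested.

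Read as a dye swap of 1 pool of 3 mice for each treatment, the arrays give no measure of variation between mice, and a value that both share can still belong to one mouse. The titles number the pools 1 and 2, and the sources do not settle whether they differ. Dye effects cancel only in the mean of both arrays. Dim probes limit the values of Il6, Il22, Ccr2, Cbln3 and Msr1, and genes missing through outlier marks have no value here. The mice of both PMCAO pools were selected by neurological grade, which was scored after treatment. The values therefore stand for mice of the selected grades, and an effect of this selection on the comparison was not tested. Each ratio already pairs the PACAP38 and saline pools on the same array. No test was made, since a dye swap leaves no variation between mice to measure.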
